A study of Mus musculus with 8 samples.

Results

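The comparison described here set epididymal tissue of mice given the N-terminal peptide of obestatin against the same tissue of mice given obestatin. It was chosen by the agent named in the sample labels, and it takes in 4 of the 8 samples of the series, 2 for each agent. All mice were of the CFT Swiss albino strain, were 5 weeks old, weighed 20 to 23 g and received intraperitoneal injections for 8 days. The N-terminal peptide group, the obestatin group and a saline group (the baseline, 2 samples) differed only in what was injected. The labels give the dose as 80 nmol/kg in one place and 80 ng/kg in another, and the number of mice per group as 3 in one and 6 in another. Each figure is given alike for both peptides, and whether the doses were equal by mass or by mole is not settled by the labels. The tissue is named as epididymal fat pad in some fields and as epididymal tissue in others. No label says whether the 2 samples of an agent came from separate mice, and the p-values therefore cover no more than the spread among these samples, which may be technical. Each sample was 1 dye channel of a 2-colour Agilent whole mouse genome array: replicate 1 of each group carried Cy3 and replicate 2 carried Cy5. The array held both samples of one agent, so that array and agent cannot be told apart. The errors and p-values rest on differences within arrays and hold no spread between arrays. This is 1 pair of related compounds, compared at 1 stated dose and 1 time.

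Obestatin is a peptide cut from preproghrelin, the product of Ghrl, which also yields ghrelin, the stomach hormone that drives feeding. The N-terminal peptide is a fragment of obestatin, and the comparison asks how the response to the fragment differs from that to the parent peptide. The receptor of obestatin is disputed: Gpr39 was proposed first, and Glp1r later. White fat stores triglyceride in adipocytes and releases hormones such as leptin and adiponectin. The tissue around the adipocytes holds macrophages, vessels and fibroblasts that lay down collagen. In the male mouse the fat pad lies against the epididymis and the testis.

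Levels are normalised log2 signals of the brightest probe of a gene, and differences are the N-terminal peptide minus obestatin on that scale, so that a difference of -1 is a level 2-fold lower after the N-terminal peptide. Median signals were 80.5 and 155 intensity units in the N-terminal peptide samples (replicate 1 in Cy3, replicate 2 in Cy5) and 89.5 and 132 in the obestatin samples, against median backgrounds of 22 to 31. The probes well above background numbered 25822 and 29096 in the N-terminal peptide samples and 26921 and 29342 in the obestatin samples, out of 41174. The N-terminal peptide samples differed from each other by over 2-fold in 57% of the 15444 genes tested and the obestatin samples in 8.78%. For a gene of median error (SE 0.49), differences under 1.29 stayed above an unadjusted p of 0.05. An exact permutation test of 2 samples against 2 cannot go below p = 0.333, so single values rest on the limma fit over all genes.

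The marker lists of neighbouring organs moved with the samples and not with the agent alone. For 28 testis germ cell genes the median level was 9.52 and 14.74 in the N-terminal peptide samples, 11.04 and 9.38 in the obestatin samples and 9.07 and 14.37 in the saline samples. N-terminal peptide replicate 2 thus stood far above the other 3 samples of the comparison, and saline replicate 2 was alike. Of the 28 genes, 12 were saturated in N-terminal peptide replicate 2 and 7 in saline replicate 2, and none in the obestatin samples. The levels of the saturated genes are compressed. Tnp2, a transition protein that packs sperm DNA, had levels of 13.17 and 15.42 in the N-terminal peptide samples, against 12.69 and 11.24 in the obestatin samples, with 1 N-terminal peptide sample saturated. The median of 21 epididymis genes was 9.29 and 6.59 in the N-terminal peptide samples, 8.90 and 7.76 in the obestatin samples and 15.20 and 9.85 in the saline samples. Gpx5, a secreted peroxidase of the epididymis, reached 13.35 and 6.34 in the N-terminal peptide samples, against 8.77 and 6.21 in the obestatin samples, of which 1 was well above background. Of the 21 epididymis genes, 5 were lower in both dyes, 3 higher and 13 of opposite signs (25.7%, 18.6% and 55.7% of all genes). The list's median difference was -0.23. Only Spink2 was at least 2-fold higher in both dyes (2.27 ± 1.78, 1 N-terminal peptide sample saturated). Adam7 had the lowest difference (-2.41). Of the 15 genes of a Leydig and Sertoli list, 2 were lower and 2 higher in both dyes, and 11 had opposite signs. The list had a median difference of 0.84 (-0.31 in Cy3 and 1.96 in Cy5). Its members ran from Trf at -4.26 to Rhox5 at 3.31 ± 1.46, with gaps of 1.04 in Cy3 and 5.57 in Cy5 for Rhox5. Of the 28 germ cell genes, 27 had opposite signs in the 2 dyes, and Tnp2 was higher in both. In the Cy3 pair the germ cell list was 1.60 lower after the N-terminal peptide, and in the Cy5 pair it was 4.78 higher; the medians of the main lists are therefore given in each dye. The part of these tissues in the results was not tested beyond that. In bulk tissue, fewer cells of a type and less RNA per cell cannot be told apart.

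The N-terminal peptide samples were lower than the obestatin samples in a broad set of fat pad genes. Far fewer genes were at least 2-fold higher in both dyes than at least 2-fold lower. No gene passed limma's adjusted p of 0.05 (0% of 15444). The lowest adjusted p was 0.212, shared by 213 genes. At an unadjusted p under 0.05, 1440 genes were lower (9.32%) and 155 higher (1%). With only the 4 samples in the fit these counts were 336 and 7, with a lowest adjusted p of 0.914, and with no dye term they were 764 and 42. A gene at least 2-fold lower in both dyes was found 983 times (6.36%) and one at least 2-fold higher in both dyes 62 times (0.402%). Without obestatin replicate 1 the fit called 3503 genes at adjusted p under 0.05, of which 730 were lower and 2773 higher; the remaining obestatin sample was then assumed to vary like the other groups. No other left-out sample gave a call. At an unadjusted p under 0.05 that fit had 2149 lower and 3977 higher genes, and the fit without N-terminal peptide replicate 2 had 643 lower and 26 higher. The 2 dyes often disagreed: 8596 genes (55.7%) had opposite signs in them, 3976 (25.7%) were lower in both and 2872 (18.6%) higher in both. Both N-terminal peptide samples lay below both obestatin samples in 3573 genes (23.1%) and above them in 2265 (14.7%). In Cy3 alone 2442 genes (15.8%) were at least 2-fold lower and 875 (5.67%) at least 2-fold higher, and in Cy5 alone 4500 (29.1%) and 4700 (30.4%). The differences in the 2 dyes correlated at r = -0.28 across genes, which are not independent replicates, and the samples of a dye share that dye. Both dyes were centred alike, with medians over all genes of -0.08 in Cy3 and -0.07 in Cy5.

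**Figure D1:**
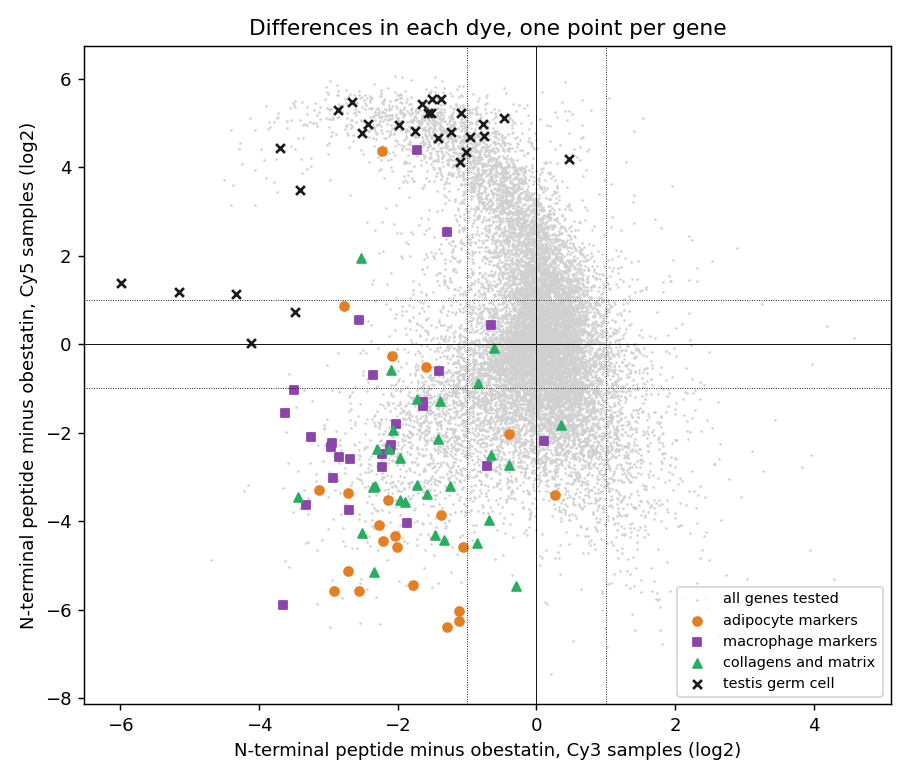
Difference between N-terminal peptide and obestatin samples (log2) in Cy3 (horizontal) and in Cy5 (vertical), with 1 point for each of the 15444 genes and 4 gene lists marked; dotted lines mark 2-fold. Adipocyte, macrophage and matrix genes lie mostly at the lower left, lower in both dyes, while testis germ cell genes lie at the upper left, with opposite signs.

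Of 34 gene lists, 13 had a median of -1 or lower in both dyes, and none had a median above 0 in both. These 13 were the lists of adipocyte, adipokine, lipid transport, lipolysis, macrophage, complement, MHC class II, chemokine, interferon, endothelial, fibroblast, matrix and erythroid genes. In all, 25 lists had medians below 0 in both dyes. The lists overlap, with 32 of their 566 genes in more than 1 list, so they are not separate observations. For every list count given below, the share of all genes at least 2-fold lower in both dyes was 6.36%.

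**Figure D2:**
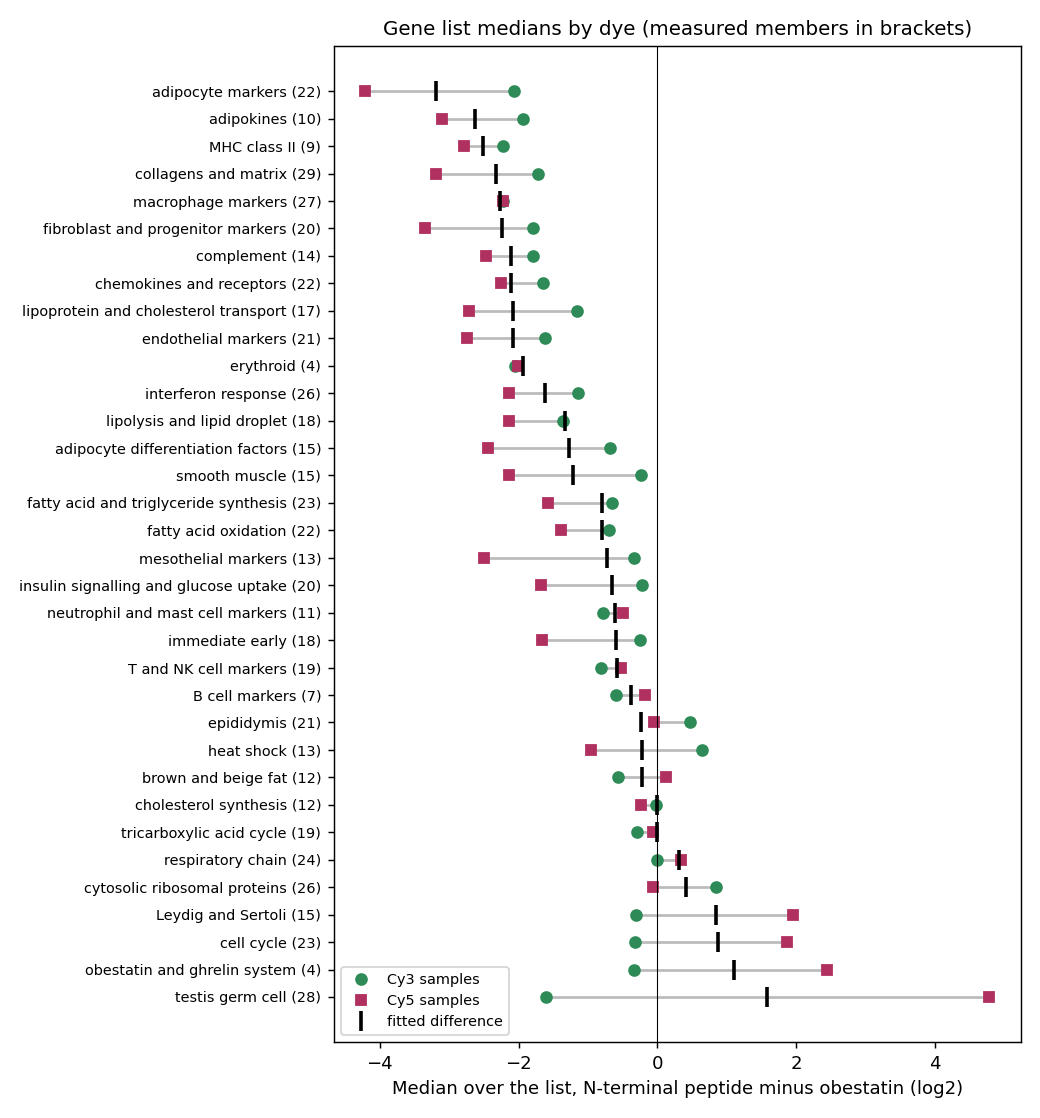
Median difference between N-terminal peptide and obestatin samples (log2) for each of 34 gene lists, with the number of measured members in brackets; circles are the Cy3 samples, squares the Cy5 samples and bars the fitted difference over both. The macrophage and MHC class II lists have their 2 dyes close together, and the testis germ cell list runs from -1.60 in Cy3 to 4.78 in Cy5.

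Adipocyte genes had the lowest median of all lists in the fit over both dyes, but not in Cy3, where the macrophage and MHC class II lists had -2.23 each. With N-terminal peptide replicate 2 left out, it was -1.88, against -2.36 for MHC class II. Of 22 measured adipocyte markers, 16 were at least 2-fold lower in both dyes (background 6.36%) and none higher, with a median difference of -3.18 (-2.06 in Cy3 and -4.21 in Cy5), against 0.0001 over all genes. In Cy3 alone, 20 of the 22 were at least 2-fold lower (background 15.8%). Lep, which encodes the satiety hormone leptin, had levels of 9.43 and 6.03 in the N-terminal peptide samples, against 12.16 and 11.15 in the obestatin samples and 10.36 and 8.69 in the saline samples. Both N-terminal peptide samples lay below both obestatin samples, with a difference of -3.92 ± 0.63 (SE, limma, adjusted p = 0.212), a level 15.2-fold lower. Retn, which encodes resistin, had levels of 11.54 and 7.67 in the N-terminal peptide samples, against 14.10 and 13.25 in the obestatin samples (-4.07 ± 0.88, adjusted p = 0.237). The groups did not overlap here either. Adipoq, which encodes adiponectin, had levels of 14.50 and 11.04 in the N-terminal peptide samples, against 16.54 and 15.38 in the obestatin samples (-3.19 ± 0.82), with 1 obestatin sample saturated. Rbp4, a retinol carrier that adipocytes secrete, differed by -3.06 ± 0.64. Of 10 adipokines 7 were at least 2-fold lower in both dyes and none higher, with a median of -2.62.

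Some genes of the lipid droplet were also lower in both dyes. Plin1, the coat protein that guards stored triglyceride, had levels of 12.32 and 8.66 in the N-terminal peptide samples, against 14.33 and 13.25 in the obestatin samples (-3.30 ± 0.78). The gap was -2.01 in the Cy3 pair and -4.59 in the Cy5 pair. Cidec, which fuses droplets, had levels of 15.55 and 9.28 in the N-terminal peptide samples, against 16.67 and 15.33 in the obestatin samples, both of them saturated. The groups overlapped. By their means it was at least 11.95-fold lower in the N-terminal peptide samples, but the difference was -0.92 without N-terminal peptide replicate 2. Plin4 differed by -3.69 ± 1.45, with 1 obestatin sample saturated, and G0s2, an inhibitor of the lipase ATGL, by -3.09 ± 0.58. Of 18 lipolysis and lipid droplet genes, 6 were at least 2-fold lower in both dyes (background 6.36%). Of the 18, 8 had opposite signs in the 2 dyes, a share below the 55.7% of all genes, and the median was -1.34. Lipe, the hormone-sensitive lipase, had levels of 9.24 and 10.10 in the N-terminal peptide samples, against 11.32 and 10.38 in the obestatin samples (-1.18 ± 0.89, adjusted p = 0.592). Only 1 of its 3 probes was lower in both dyes. Sncg, a synuclein abundant in fat cells, differed by -4.25 ± 0.75, the largest gap of the adipocyte markers. Aqp7, the glycerol channel of adipocytes, went against the list in Cy5, with levels of 8.82 and 14.31 in the N-terminal peptide samples and 11.05 and 9.94 in the obestatin samples.

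Lipoprotein lipase and its partners were lower as well. Lpl, which frees fatty acids from circulating triglyceride, had levels of 15.26 and 9.00 in the N-terminal peptide samples, against 16.55 and 15.38 in the obestatin samples (-3.84 ± 1.54, adjusted p = 0.505), with 1 obestatin sample saturated. The error was large, with N-terminal peptide replicate 2 far below the other 3 samples. Gpihbp1, which holds the lipase on capillaries, differed by -3.52 ± 0.78, and Cd36, a fatty acid transporter, by -3.61 ± 1.04. Of 17 lipoprotein and cholesterol transport genes, 9 were at least 2-fold lower in both dyes (median -2.08).

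A minority of the differentiation factors of fat cells were at least 2-fold lower in both dyes. Pparg, the receptor that drives adipocyte differentiation, had levels of 9.62 and 8.10 in the N-terminal peptide samples, against 12.35 and 11.46 in the obestatin samples and 9.50 and 9.49 in the saline samples. Its difference was -3.05 ± 0.53 (adjusted p = 0.212) and similar in both dyes, and the N-terminal peptide samples lay near the saline ones in Cy3. Cebpa, its partner, differed by -3.33 ± 0.73, and Cebpd, an early factor of differentiation, by -2.38 ± 0.52. Of 15 differentiation factors 5 were at least 2-fold lower in both dyes, with a median of -1.27 that was -0.68 in Cy3 and -2.44 in Cy5. That median was -2.21 without obestatin replicate 1 and -0.78 without obestatin replicate 2.

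Enzymes of fat synthesis and oxidation differed less than the adipocyte markers. Of 23 fatty acid and triglyceride synthesis genes 5 were at least 2-fold lower in both dyes and none higher (median -0.80). Fasn, fatty acid synthase, had levels of 16.34 and 14.01 in the N-terminal peptide samples, against 16.67 and 15.33 in the obestatin samples, both of them saturated. The groups overlapped. By their means it was at least 1.78-fold lower in the N-terminal peptide samples, but the difference was -0.08 without N-terminal peptide replicate 2. Both of its 2 probes were lower in both dyes, and their mean differed by -1.80. Thrsp, a lipogenic regulator, had levels of 10.99 and 8.22 in the N-terminal peptide samples, against 13.31 and 11.98 in the obestatin samples (-3.04 ± 0.69). Pnpla3, a lipid droplet protein, differed by -3.14 ± 0.82 and was well above background in only 1 N-terminal peptide sample, and Acacb, an acetyl-CoA carboxylase, differed by -2.23 ± 0.69. Elovl6, an elongase, had overlapping groups, with gaps of -0.34 in Cy3 and -4.35 in Cy5, and its difference of -2.34 ± 0.98 was -1.09 without N-terminal peptide replicate 2 and -0.92 without obestatin replicate 2. Of 22 fatty acid oxidation genes, 3 were at least 2-fold lower in both dyes (median -0.79). Pdk4, the kinase that shuts pyruvate dehydrogenase, had levels of 10.09 and 7.41 in the N-terminal peptide samples, against 12.64 and 12.82 in the obestatin samples (-3.98 ± 0.81). It stood well below the other members: Acadl, an acyl-CoA dehydrogenase, differed by -1.50 ± 0.43 and Acadm by -1.63 ± 0.48.

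Of 20 insulin signalling and glucose uptake genes, 6 were at least 2-fold lower in both dyes (median -0.65). Slc2a4, the insulin-regulated glucose transporter GLUT4, had levels of 10.45 and 7.37 in the N-terminal peptide samples, against 11.82 and 11.24 in the obestatin samples (-2.62 ± 0.69). Irs1, the docking protein of the insulin receptor, differed by -2.51 ± 0.63, and the growth factor Igf1 by -2.67 ± 0.57. Among 12 brown and beige fat genes 1 was at least 2-fold lower in both dyes, which is near the background of 6.36%, and the list's median was -0.22. That gene was the respiratory subunit Cox8b (-2.81 ± 0.80), well above background in only 1 N-terminal peptide sample. Ucp1, the uncoupling protein of brown fat, had 6.11 and 6.16 in the N-terminal peptide samples, neither well above background, against 6.07 and 6.73 in the obestatin samples, 1 of them above it.

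**Figure D3:**
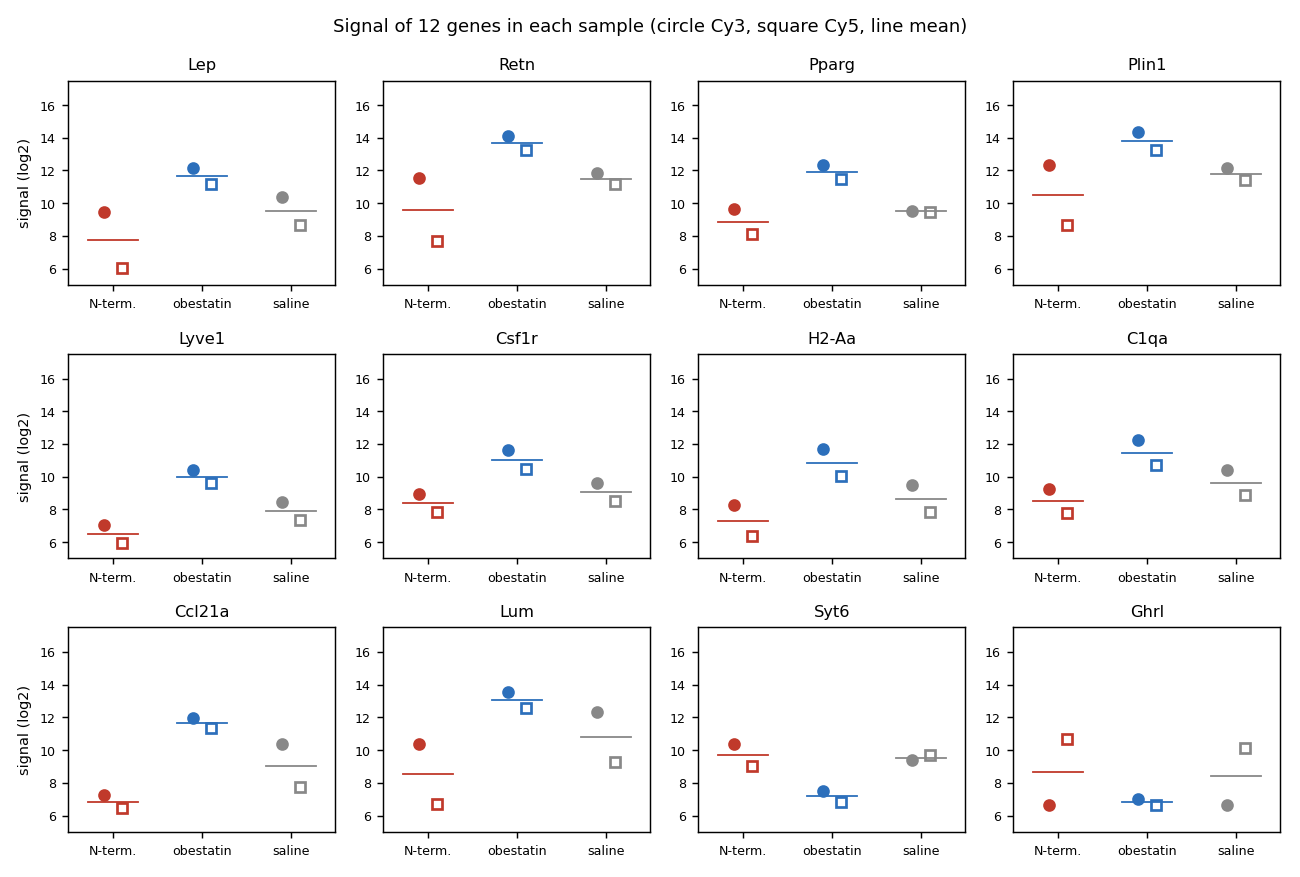
Signal (log2) of 12 genes in each sample, with the N-terminal peptide at the left, obestatin in the middle and saline at the right; circles are Cy3 samples, squares Cy5 samples and lines group means. Both N-terminal peptide samples lie below both obestatin samples for Lep through Lum and above them for Syt6, while Ghrl is high only in the Cy5 samples of the N-terminal peptide and saline groups.

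Macrophage genes were lower by nearly the same amount in both dyes. Of 27 markers 19 were at least 2-fold lower in both and none higher, with medians of -2.26 over both, -2.23 in Cy3 and -2.23 in Cy5. Csf1r, the receptor for the macrophage growth factor CSF1, had levels of 8.93 and 7.86 in the N-terminal peptide samples, against 11.62 and 10.46 in the obestatin samples and 9.61 and 8.53 in the saline samples (-2.65 ± 0.27, adjusted p = 0.212). Lyve1, a hyaluronan receptor of tissue macrophages and lymph vessels, had levels of 7.06 and 5.95 in the N-terminal peptide samples, against 10.38 and 9.60 in the obestatin samples (-3.49 ± 0.29). Its unadjusted p was the smallest among all genes that were lower in both dyes, but it was well above background in only 1 N-terminal peptide sample, and the difference was -5.34 from signals processed by Feature Extraction. Stab1, a scavenger receptor, differed by -2.69 ± 0.28 and Cd163, the haemoglobin scavenger receptor, by -3.22 ± 0.57. Acp5, an acid phosphatase, differed by -3.65 ± 0.36, lysozyme (Lyz1) by -2.98 ± 0.39 and Coro1a, an actin regulator of blood cells, by -2.84 ± 0.27. Aif1, listed as a macrophage marker, had levels of 10.73 and 15.29 in the N-terminal peptide samples and 12.46 and 10.91 in the obestatin samples, so its groups overlapped, and 1 N-terminal peptide sample was saturated.

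Complement and chemokine genes were lower with them. C1qa, a chain of the recognition protein C1q, had levels of 9.27 and 7.80 in the N-terminal peptide samples, against 12.26 and 10.68 in the obestatin samples (-2.94 ± 0.27), and C1qc differed by -2.72 ± 0.29. Cfb, complement factor B, differed by -3.91 ± 0.54 and Cfp, properdin, by -3.18 ± 0.44. Of 14 complement genes, 9 were at least 2-fold lower in both dyes (median -2.10). Ccl21a, a chemokine of lymph vessels that draws dendritic cells and T cells, had levels of 7.25 and 6.45 in the N-terminal peptide samples, against 11.95 and 11.33 in the obestatin samples and 10.34 and 7.73 in the saline samples. Its difference was -4.79 ± 0.72, and its gap of -4.70 in Cy3, the smaller of the 2 dyes, was the largest such gap among genes lower in both dyes. Ccl6 differed by -4.78 ± 0.78, Ccl9 by -3.89 ± 0.59 and Ccl8 by -3.67 ± 0.57. Of 22 chemokines and receptors 15 were at least 2-fold lower in both dyes (median -2.10).

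Antigen presentation by MHC class II, which shows peptides to helper T cells, had 7 of 9 genes at least 2-fold lower in both dyes (median -2.51). H2-Aa had levels of 8.27 and 6.35 in the N-terminal peptide samples, against 11.66 and 10.05 in the obestatin samples (-3.55 ± 0.31). H2-Ab1 differed by -3.10 ± 0.29 with all 4 of its probes lower in both dyes, H2-Eb1 by -3.77 ± 0.45 and the invariant chain Cd74 by -2.86 ± 0.39. Promoters of these genes are known for a shared set of short boxes, of which the Y box holds CCAAT, the site of factor NF-Y. The 100 bases before the RefSeq start (build GRCm38.p6) of the 2 members with the lowest differences that hold it are given here, with CCAAT or its complement ATTGG in capitals. H2-Eb1 lies at chr17:34305767-34305866 on the plus strand and H2-Aa at chr17:34287824-34287923 on the minus strand.
H2-Eb1: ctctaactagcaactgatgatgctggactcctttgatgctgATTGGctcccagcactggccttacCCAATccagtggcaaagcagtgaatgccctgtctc
H2-Aa: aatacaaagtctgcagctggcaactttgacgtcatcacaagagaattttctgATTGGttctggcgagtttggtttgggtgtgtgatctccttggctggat
CCAAT on either strand was found in the promoter windows of 5 of the 6 measured MHC class II genes with an entry, from 250 bases before to 50 after the start, against 41.1% of all 27025 genes with one. A match is a description of these letters and not of a bound site.

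Genes that interferon induces were lower too. Of 26 measured, 15 were at least 2-fold lower in both dyes and none higher, with a median of -1.61 (-1.14 in Cy3 and -2.14 in Cy5). Gbp2, a guanylate-binding protein that attacks intracellular pathogens, had levels of 8.78 and 7.13 in the N-terminal peptide samples, against 11.21 and 10.34 in the obestatin samples (-2.82 ± 0.35). Iigp1, another GTPase, differed by -2.68 ± 0.31, the chemokine Cxcl9 by -2.60 ± 0.57 and the immunoproteasome subunit Psmb8 by -2.49 ± 0.43. Gbp3 differed by -2.21 ± 0.33 and Oas1a, a sensor of double-stranded RNA, by -1.62 ± 0.29. Interferon-responsive promoters often hold the motif TTTC, any 2 bases, TTTC, which interferon regulatory factors bind. It was found on either strand in 12 of 21 measured members with an entry, against 3.99% of all genes. The 3 members at least 2-fold lower in both dyes that hold it in the last 100 bases before the start are shown, with the match and overlapping matches in capitals: Gbp2 at chr3:142620563-142620662 (plus strand), Gbp3 at chr3:142559944-142560043 (plus strand) and Oas1a at chr5:120907526-120907625 (minus strand).
Gbp2: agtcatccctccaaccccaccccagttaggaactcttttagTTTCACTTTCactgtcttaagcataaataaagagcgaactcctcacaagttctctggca
Gbp3: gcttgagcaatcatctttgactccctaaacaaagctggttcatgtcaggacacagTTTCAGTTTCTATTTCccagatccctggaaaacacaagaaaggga
Oas1a: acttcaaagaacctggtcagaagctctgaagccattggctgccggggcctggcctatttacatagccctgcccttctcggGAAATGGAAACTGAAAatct
Of the 13 interferon genes with an entry that were at least 2-fold lower in both dyes, 7 held the motif in the whole window.

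The T, NK and B cell, neutrophil and mast cell lists had smaller gaps than the macrophage list, and the erythroid list had a gap near it. Of 19 T and NK cell markers 4 were at least 2-fold lower in both dyes (median -0.58), among them Klrd1, a receptor of NK cells (-1.70 ± 0.31, well above background in only 1 N-terminal peptide sample), and Cd6 (-1.60 ± 0.35). Only 1 of the 2 probes of Cd6 was lower in both dyes, and their mean differed by -0.81. Thy1 had the largest gap (-2.06 ± 0.71). Of 7 B cell markers 3 were at least 2-fold lower in both dyes (median -0.38). Ighm, the heavy chain of IgM, had levels of 9.30 and 7.31 in the N-terminal peptide samples, against 11.62 and 10.24 in the obestatin samples (-2.62 ± 0.32), and the joining chain Jchain differed by -2.19 ± 0.38. Of 11 neutrophil and mast cell markers 2 were at least 2-fold lower in both dyes, S100a9 (-3.76 ± 0.97, well above background in only 1 N-terminal peptide sample) and S100a8. S100a8 was not well above background in either N-terminal peptide sample and was at least 3.95-fold lower in them. All 11 neutrophil and mast cell genes were well above background in both obestatin samples, against 5 and 4 in the N-terminal peptide samples. For the 19 T and NK genes the counts were 19 and 19 against 11 and 11. A probe was kept when well above background in both samples of any 1 group. Members could thus enter through the group where they were high, so these lists are no separate evidence of direction. These dim lists also depended on the processing. The neutrophil and mast cell median of -0.61 was -2.34 from signals processed by Feature Extraction and 0.62 with probes well above background in all 4 samples. The B cell median was -1.82 from processed signals but -0.063 when dim probes were kept, and the T and NK median was -1.87 from processed signals. Of 4 erythroid genes, 2 were at least 2-fold lower in both dyes (median -1.94). The haemoglobin gene Hba-a1 had levels of 11.93 and 10.03 in the N-terminal peptide samples, against 14.67 and 13.78 in the obestatin samples (-3.24 ± 0.60).

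Vessels and connective tissue were lower in both dyes. Of 21 endothelial markers 17 were at least 2-fold lower in both and none higher, with a median of -2.07 (-1.61 in Cy3 and -2.74 in Cy5). Cdh5, the cadherin that joins endothelial cells, had levels of 10.09 and 7.77 in the N-terminal peptide samples, against 11.98 and 11.72 in the obestatin samples (-2.92 ± 0.65). Emcn differed by -2.91 ± 0.54, Plvap, which spans endothelial pores, by -2.81 ± 0.43 and Ramp2, part of the adrenomedullin receptor, by -2.71 ± 0.38. Esm1, a secreted proteoglycan of endothelial cells, had levels of 8.00 and 6.40 in the N-terminal peptide samples, against 11.35 and 9.69 in the obestatin samples (-3.32 ± 0.32). The gap of Esm1 was alike in both dyes, and that of Cdh5 was larger in Cy5.

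Of 20 fibroblast and progenitor markers 13 were at least 2-fold lower in both dyes (median -2.24), and of 29 collagens and matrix genes 19 (median -2.33). Lum, a proteoglycan that spaces collagen fibrils, had levels of 10.36 and 6.70 in the N-terminal peptide samples, against 13.53 and 12.58 in the obestatin samples and 12.32 and 9.27 in the saline samples (-4.52 ± 0.97). Dpt, a matrix protein of fat and skin, had levels of 9.52 and 6.57 in the N-terminal peptide samples, against 12.85 and 11.07 in the obestatin samples (-3.91 ± 0.42). Fibronectin (Fn1) differed by -3.45 ± 0.38 with all 3 probes lower in both dyes, the Wnt inhibitor Sfrp2 by -4.30 ± 0.86, Col5a2 by -3.40 ± 0.51 and Col5a3 by -3.74 ± 0.87. The fibroblast list had medians of -1.80 in Cy3 and -3.35 in Cy5 and the matrix list -1.72 and -3.19, so their gaps were larger in Cy5. The Cy5 pair included the sample rich in germ cell genes, and whether the 2 are linked was not tested. Of 15 smooth muscle genes 3 were at least 2-fold lower in both dyes, led by the pericyte gene Rgs5 (-3.48 ± 0.42), and the list's median was -0.24 in Cy3 and -2.14 in Cy5. Of 13 mesothelial markers 1 was at least 2-fold lower in both dyes, near the background of 6.36% (median -0.73). Msln, the mesothelial surface protein, had levels of 10.09 and 6.17 in the N-terminal peptide samples, against 10.57 and 10.21 in the obestatin samples, and the Cy3 pair hardly differed. Outside these lists, Orm2, an acute phase protein, differed by -3.56 ± 0.60. Transferrin (Trf), the iron carrier of blood, which was listed among the Leydig and Sertoli genes, had levels of 10.98 and 8.36 in the N-terminal peptide samples, against 14.60 and 13.26 in the obestatin samples (-4.26 ± 0.44). It went against that list, whose median difference was 0.84.

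**Figure D4:**
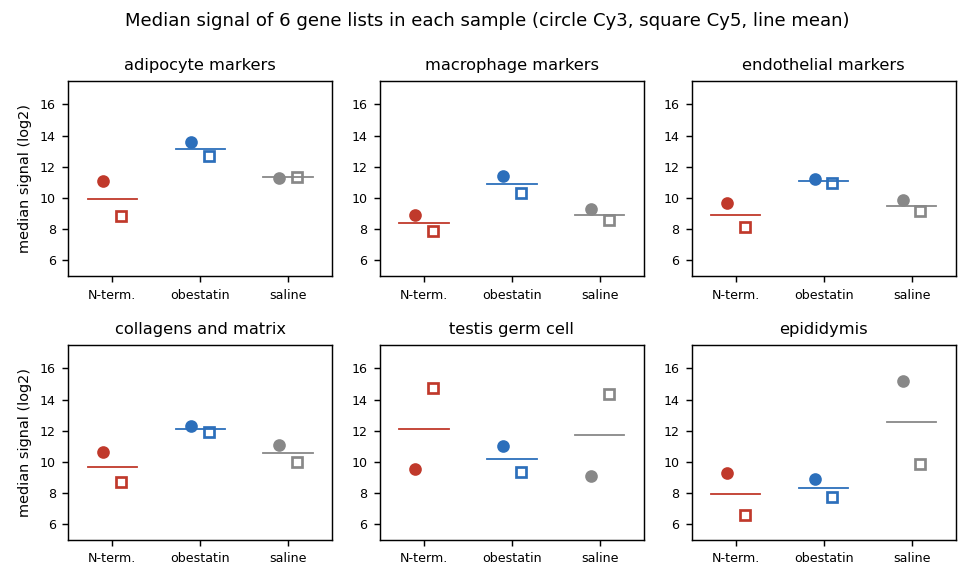
Median signal (log2) of 6 gene lists in each sample, with the N-terminal peptide at the left, obestatin in the middle and saline at the right; circles are Cy3 samples, squares Cy5 samples and lines group means. Adipocyte, macrophage, endothelial and matrix medians of both N-terminal peptide samples lie below those of both obestatin samples, while the germ cell median is 14.74 in N-terminal peptide replicate 2 and 14.37 in saline replicate 2.

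Set against saline, the adipocyte, macrophage, endothelial and matrix lists had medians on opposite sides for the 2 peptides. Both comparisons share the saline samples, so their values are given side by side only. The adipocyte list had a median of -1.22 for the N-terminal peptide minus saline and 1.76 for obestatin minus saline. The macrophage list had -0.64 for the N-terminal peptide and 1.47 for obestatin, and the endothelial list -0.32 and 1.90 in that order. The matrix list had -0.63 for the N-terminal peptide and 1.56 for obestatin. In these lists the N-terminal peptide median lay nearer to saline than the obestatin median did. By sample, the adipocyte median level was 11.06 and 8.86 in the N-terminal peptide samples and 11.28 and 11.37 in the saline samples. The Cy3 pair thus hardly differed. In the macrophage, endothelial and matrix lists, too, the N-terminal peptide level fell further below saline in Cy5 than in Cy3. The authors' deposited table of genes called after the N-terminal peptide holds 72 probes below saline. Of these, 56 were lower after the N-terminal peptide than after obestatin in both dyes (25.7% of all genes tested), 1 was higher and 15 had opposite signs. The table holds 37 above saline, of which 18 were higher (18.6% of all genes tested), 1 was lower and 18 had opposite signs. The median log2 fold over saline of the 72 probes was -1.38 for the N-terminal peptide and -0.95 for obestatin. That of the 37 was 1.36 and 0.69 in that order, so on these probes both peptides lay on the same side of saline. Those probes were chosen on the N-terminal peptide samples, so this is no independent evidence of direction.

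Few genes were at least 2-fold higher after the N-terminal peptide in both dyes (62, 0.402%), though 2872 (18.6%) were higher in both by any amount. Syt6, a synaptotagmin of the sperm acrosome and of neurons, had levels of 10.38 and 9.01 in the N-terminal peptide samples, against 7.49 and 6.84 in the obestatin samples and 9.40 and 9.68 in the saline samples (2.53 ± 0.47, adjusted p = 0.221). The obestatin samples were the low ones there, and the N-terminal peptide samples lay on either side of saline. The same order held for Eml6, a microtubule protein (2.33 ± 0.48, all 3 probes higher), the acyl-CoA thioesterase Acot6 (2.20 ± 0.45) and the homeobox gene Evx2 (2.01 ± 0.46). Hmga2, a chromatin protein of growing tissue, had levels of 8.63 and 8.39 in the N-terminal peptide samples, against 6.38 and 6.04 in the obestatin samples (2.30 ± 0.41). Only 1 of its 3 probes was higher in both dyes, 1 obestatin sample was well above background, and its difference was -0.12 when only probes well above background in all 4 samples were kept. Rtp1, which carries odorant receptors to the cell surface, was not well above background in either obestatin sample, and was at least 3.06-fold higher in the N-terminal peptide samples. The endogenous retroviral gene Erv3 (1.72 ± 0.35), the neuronal factor Neurod2 (1.61 ± 0.34), agmatinase (Agmat, 1.68 ± 0.36) and the ciliary gene Bbip1 (1.69 ± 0.39) completed the 10 with the smallest p. By the smaller gap of the 2 dyes, 1700018G05Rik (2.77 ± 1.21), Cemip, which breaks down hyaluronan (1.94 ± 0.53), the dynein chain Dync1i1 (2.21 ± 0.67) and Ankrd60 (3.32 ± 1.06) came in besides. Ankrd60 had levels of 10.13 and 12.59 in the N-terminal peptide samples, against 8.59 and 7.49 in the obestatin samples, so the groups did not overlap, with gaps of 1.54 in Cy3 and 5.10 in Cy5.

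The genes of the obestatin system itself gave no call. Ghrl had levels of 6.63 and 10.69 in the N-terminal peptide samples, 7.04 and 6.64 in the obestatin samples and 6.64 and 10.14 in the saline samples. The difference was 1.82 ± 1.15, with a 95% interval from -1.21 to 4.85 (adjusted p = 0.586), and it was -0.015 without obestatin replicate 2. Among these 6 samples Ghrl was high in the 2 that were rich in germ cell genes and low in the others. Gpr39 had levels of 6.73 and 8.41 in the N-terminal peptide samples, against 6.73 and 6.70 in the obestatin samples (0.85 ± 0.49, interval -0.42 to 2.13). The Cy3 samples were alike and the Cy5 samples were not. Ghsr, the ghrelin receptor, differed by -0.22 ± 0.28, with an interval from -0.96 to 0.51 and 1 sample of each group well above background. Pcsk1, a convertase that cuts prohormones, differed by 1.34, with opposite signs in the 2 dyes and 1 N-terminal peptide sample well above background. Glp1r was not well above background in any sample and was not tested.

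The ribosomal protein, respiratory chain, tricarboxylic acid cycle and cholesterol synthesis lists had small medians over both dyes. For the ribosomal protein and respiratory chain lists the direction depended on the scaling. The cytosolic ribosomal protein list (26 genes) had a median of 0.41 (0.84 in Cy3 and -0.07 in Cy5), which was -0.36 after quantile scaling. Of its genes 2 and 9 were saturated in the N-terminal peptide samples and 0 and 14 in the obestatin samples, which limits that comparison. The respiratory chain list (24 genes) had 0.32, which was -0.41 after quantile scaling. The tricarboxylic acid cycle list had a median of -0.007 (-0.41 after quantile scaling), and in it Pdha1, a subunit of pyruvate dehydrogenase, differed by -2.62 ± 0.68 and Pcx, pyruvate carboxylase, by -2.16 ± 0.50. The cholesterol synthesis list had a median of -0.01 over 12 genes, with Fdft1, squalene synthase, at 1.75 ± 0.61 and the sterol sensor partner Insig1 at -1.26 ± 0.38. The groups overlapped for Insig1, only 1 of its 2 probes was lower in both dyes, and the mean of its probes differed by -0.24. The cell cycle list (23 genes) had a larger median of 0.88, with -0.33 in Cy3 and 1.86 in Cy5, the same order of dyes as the germ cell list. Heat shock genes had a median of -0.23, with the small chaperone Cryab at -2.89 ± 0.59 and Dnajb1, a co-chaperone saturated in 1 N-terminal peptide sample, at 1.35 ± 0.57. Of 18 immediate early genes, 1 was at least 2-fold lower in both dyes, a share below the background of 6.36%, and the median was -0.60. It was the phosphatase Dusp1 (-1.83 ± 0.27). Dusp1 had levels of 9.32 and 9.00 in the N-terminal peptide samples, against 11.16 and 10.83 in the obestatin samples, the same gap in both dyes.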

How the data were processed

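The deposited scanner files hold spot intensities of 2 channels made with Feature Extraction 10.5.1.1, per the file headers. The readme that the authors deposited ties the green channel to Cy3 and the red to Cy5. A table of log2 values came from the authors too, made with GeneSpring GX, per the readme. Its columns labelled Cy3 matched the red channel (r = 1) and those labelled Cy5 the green, which changes neither the group of any value nor the within-dye pairs. Median signals and median backgrounds were corrected with normexp (offset 50), scaled by loess and Aquantile in limma 3.58.1 (R 4.3.3), and each channel was treated as a sample. Loess thus fitted the 2 samples of 1 agent to each other, since they shared an array. The SE and p-values hold no spread between arrays, though the comparison lies wholly between them. Probes well above background in both samples of a group were kept, 28166 of 41174. Platform annotation gave 1 symbol to 32664 probes and several to 45, and did not list 8465. Symbols were updated with a RefSeq table of GRCm38.p6, and the brightest probe stood for each gene. The fit held group means and a dye term over all 8 samples, with 3 residual degrees of freedom, and p-values were adjusted by Benjamini-Hochberg over all genes. It was also run on simulated data with independent errors for each channel. Those data held no array effect, so that run cannot show how the fit behaves with one. For a probe dim or saturated throughout a group, a bound was computed, from the brighter group's mean over the lowest signal well above background, or from both means where the bright group was saturated. Spots at 65527 counted as saturated. Promoter sequences came from RefSeq.

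The genes named were a fixed set of obestatin and fat genes, the 10 genes per direction with the smallest p and the 10 with the largest smaller within-dye gap, and up to 4 members per list with the largest difference of 1 sign in both dyes. Other genes (Aqp7, Aif1, Ucp1, Pcsk1, Gbp3 and Oas1a) were named after their values were seen. The members and lists were chosen with earlier results of these data known. Alternatives covered background, scaling, probe filters, probe choice, the fit and each sample left out.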

Additional observations from a re-analysis of the deposited data

How the results depend on the processing

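The count of genes at adjusted p under 0.05 was 0 under every alternative and in every fit without 1 sample, except without obestatin replicate 1, where it was 3503 (range 0 to 3503). Many named genes were picked for a small p or a large gap in these same samples, so calls among them in that fit are no separate evidence. The counts at unadjusted p under 0.05 ran from 643 to 2149 for lower and from 21 to 3977 for higher genes when 1 sample was left out. The lower count was 336 with only the 4 samples in the fit and 764 with no dye term. The higher count was 7 with only the 4 samples, 42 with no dye term, 76 with no loess, 61 with the authors' log2 values and 427 with no filter on dim probes. Genes at least 2-fold higher in both dyes numbered 238 from signals processed by Feature Extraction and 41 from the mean of all probes; the lower count held within 1.5 times under all 8 alternatives that give one. A count over both dyes cannot be given with a sample left out.

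The 13 lists with low medians in both dyes kept a median below 0 in all settings, from -4.26 to -0.54, where the highest is the erythroid list with no filter on dim probes (-0.64 without saturated genes). From signals processed by Feature Extraction the medians were -1.82 for B cell, -1.87 for T and NK cell, -0.83 for brown fat and -2.34 for neutrophil and mast cell markers. With quantile scaling they were -0.36 for ribosomal proteins, -0.41 for the respiratory chain and -0.41 for the tricarboxylic acid cycle, and with no loess -0.075 for the respiratory chain. With the authors' log2 values they were -0.67 for B cell, -1.05 for T and NK cell and -1.15 for neutrophil and mast cell markers, -0.12 for the respiratory chain and -0.16 for the tricarboxylic acid cycle. The B cell median was -0.063 with no filter. With probes above background in all 4 samples the medians were -1.28 for B cell, -0.89 for T and NK cell and 0.62 for neutrophil and mast cell markers, and Hmga2 was -0.12.

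With 1 sample left out, medians ran from -4.26 to -1.88 for adipocyte markers, -1.36 to -0.62 for fatty acid synthesis, -1.33 to -0.57 for fatty acid oxidation, -1.48 to -0.40 for insulin signalling, -2.46 to -0.019 for mesothelial markers, -2.53 to -0.024 for smooth muscle, -0.76 to -0.47 for T and NK cells, -0.72 to 0.15 for brown fat, -0.18 to 0.26 for cholesterol synthesis, -0.18 to 0.033 for the tricarboxylic acid cycle, -0.20 to 1.77 for the cell cycle and -1.59 to 4.83 for germ cells. They also crossed 0 for heat shock (-0.73 to 0.39), epididymis (-0.98 to 0.54), Leydig and Sertoli (-0.14 to 1.69), ribosomal protein (-0.09 to 0.77) and ghrelin system genes (-0.10 to 2.28). They ran from -1.33 to -0.18 for immediate early genes, -2.21 to -0.78 for differentiation factors and -1.92 to -0.81 for lipolysis. Among named genes, Ghrl ran from -0.015 to 3.66, Aqp7 from -1.76 to 3.90, Aif1 from -1.61 to 4.26, Ucp1 from -0.65 to 0.11 and Pcsk1 from -0.36 to 3.04. Fasn ran from -1.58 to -0.08, Elovl6 from -3.76 to -0.92 and Cidec from -6.24 to -0.92. The causes were not tested. The labels carry no replicate numbers, so no block other than the dye was fitted. The fit of only the 4 samples, with the dye as the pairing, had a lowest adjusted p of 0.914.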
